A study of Mus musculus with 2 samples.

Results

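The long tags described here are all the tags of 27 to 44 nt in the DMSO list of a small RNA sequencing experiment on J1 mouse embryonic stem cells. A tag is a distinct sequence listed with its length and the number of reads that had it. The members were taken by length alone: 144512 of the 910008 tags in the list (15.9%), with 2255913 of its 18870345 reads (11.95%). The other 765496 tags, with 16614432 reads, were 18 to 26 nt long.

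J1 is an established embryonic stem cell line of the 129S4/SvJae mouse strain, here adapted to gelatin and grown in medium with knockout serum replacement. The cultures compared were treated for 6 h with DMSO, the solvent, or with 1 µM SC1, a small molecule also called pluripotin, both in medium with 1000 U/mL of the self-renewal factor LIF, and each condition had 1 library. The list of the SC1 library ran from 3 to 17 nt and held 0 tags of 27 nt or more, so the long tags could be described in the DMSO library only and no treatment effect was measured. The DMSO list began at 18 nt where the SC1 list ended, and the lists may hold different length classes, so the 0 describes the deposited list and not the RNA of the SC1 cells. With 1 library there is no replicate error and no test. Intervals are exact Clopper-Pearson 95% intervals. They cover counting error only, since reads of PCR products that carry no molecular identifier are not separate molecules.

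Several kinds of RNA are known to give fragments of these lengths. Piwi-interacting RNAs (piRNAs), which silence transposons in germ cells, mostly start with U (T in the tags), and those made by the ping-pong cycle carry A at the tenth base, counted from the 5′ end. Transfer RNAs cut in or near the anticodon loop give 5′ fragments of about these lengths, and mature tRNAs end in CCA, a tail that an enzyme adds after transcription. Ribosomal RNA, small nucleolar RNAs (snoRNAs, which guide rRNA modification and processing) and Y RNAs (short RNAs bound by the Ro protein) are abundant and also leave fragments, whereas mature miRNAs are shorter than the members.

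The long tags were grouped by their first 18 bases. The most abundant tag of each of 7 of the 10 leading groups is shown first, since these starts carried a large share of all long reads, and each start is numbered by the rank of its group. Capitals mark the bases after the 18 that define the group, and every sequence is written 5′ to 3′ as the list has it.
start 1: aggtgtagaataagtgggAGGCCCCCG
start 2: agaggtgtagaataagtgGGAGGCCCCCG
start 4: tcctcgcgtcggggtcggGGCACGCCGG
start 5: tggggagtttgactggggCGGTACACCTG
start 6: gtggggagtttgactgggGCGGTACACCT
start 8: ggctcgttggtctaggggTATGATTCTC
start 9: cctgcatgatgacgaacaAATACTGACT

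Most long reads lay just above the lower limit of 27 nt. Of all long reads, 40.5% (40.4 to 40.5) were 27 nt, 31.9% were 28 nt, 19.3% were 29 nt and 6.94% were 30 nt. The lengths from 27 to 30 nt held 98.5% of the reads and 92.3% of the tags. Lengths of 31 to 33 nt held 1.46%, and the 34 to 44 nt tags numbered 558, with 617 reads (0.0274%). A length peak, a length with more reads than its neighbours, occurred at 27, 38, 42 and 44 nt, by reads and by distinct tags. The peak at 27 nt was set by the lower limit, because the 26 nt tags had 1262258 reads against 912530 at 27 nt. The peaks at 38, 42 and 44 nt rested on 36, 83 and 42 reads. Only the 27 nt peak was left among tags with at least 10 reads.

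**Figure D1:**
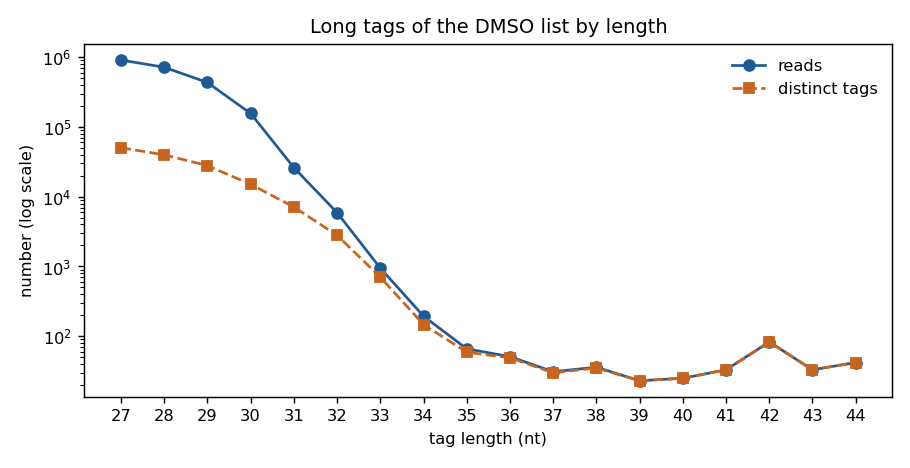
Number of reads (circles) and of distinct tags (squares) of the DMSO list at each length from 27 to 44 nt, on a log scale. Reads fall from 912530 at 27 nt to 194 at 34 nt, where reads and distinct tags nearly meet, and a small rise stands at 42 nt.

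The reads were concentrated in few tags. The most abundant tag, the 27 nt tag of start 1, had 186140 reads, 8.25% of the long reads. The leading 10 tags held 23.6%, the leading 100 held 58.7% and the leading 1000 held 82.8%. At the other end, 113630 tags (78.6%) were seen once and together held 5.04% of the reads. A share by reads therefore describes mainly the abundant tags, and a share by distinct tags describes mainly tags seen once.

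Neither base that marks piRNAs was the most frequent at its position. T was the first base of 20.8% (20.7 to 20.8) of long reads and 23.4% of long tags, beside 21.2% and 25.3% in the 18 to 26 nt tags. The most frequent first base was A, at 33.9% of reads. A was the tenth base of 32.1% (32.03 to 32.16) of long reads and 27.7% of tags, beside 29.7% and 25.8% in the shorter tags, while G led the tenth position at 35.8%. Without the most abundant tag the share of reads with A at position 10 was 25.99%, and without all tags of start 1 it was 22.4%. The share of A at the tenth base by reads thus leaned on a single start.

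Base shares by reads moved with the tags that dominated each length. The first T share was 14.8% at 27 nt, 23.0% at 28 nt, 32.9% at 29 nt and 11.8% at 30 nt. By distinct tags it stayed between 22.2% and 23.9% over the same lengths. Tags with both T first and A at position 10 held 1.75% of long reads, where the product of the separate shares would be 6.66%. Among reads with T first, 8.44% had A at position 10, against 38.3% of the other reads; counted by distinct tags, these shares were 27.6% and 27.7%. The 32 to 44 nt tags, with 7479 reads in all, had T first in 11.5% of reads and A at position 10 in 43.6%. By distinct tags these shares were 19.2% and 27.4%, and a single tag of 32 nt had 1913 of the reads.

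The 5 most abundant tags of 27 to 31 nt with T first or A at position 10 had one of these bases and not the other. Of these, 4 are printed here with bases 1 and 10 in capitals, because abundant tags like them set the shares by reads. They were forms of start 1 or 4.
sign tag 1: AggtgtagaAtaagtgggaggcccccg
sign tag 3: AggtgtagaAtaagtgggaggcccccgg
sign tag 4: TcctcgcgtCggggtcggggcacgccgg
sign tag 5: AggtgtagaAtaagtgggaggcccccggcg

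**Figure D2:**
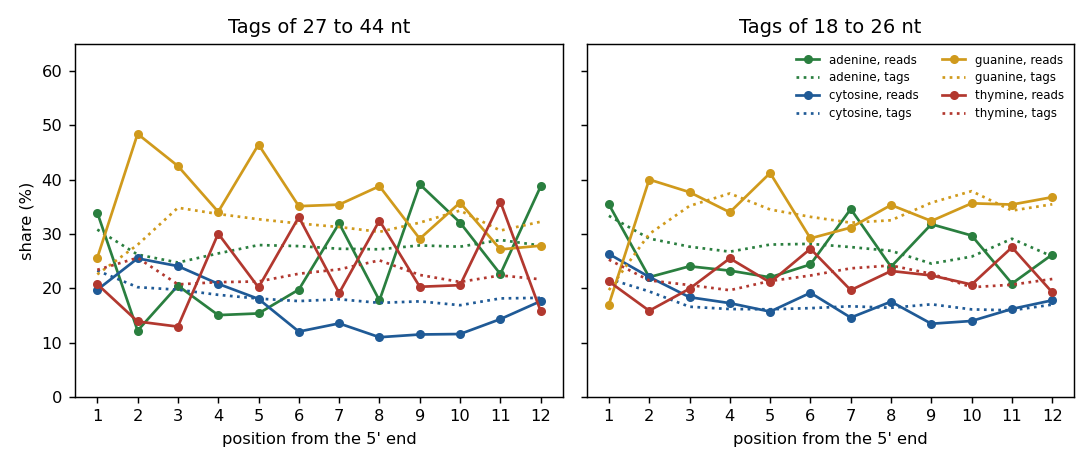
Share of each base at the first 12 positions from the 5′ end, by reads (lines with points) and by distinct tags (dotted lines), for the 27 to 44 nt tags (left) and the 18 to 26 nt tags (right). Thymine stands at 20.8% of long reads at position 1 and adenine at 32.1% at position 10. Guanine has the highest read share at position 2, at 48.4%.

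The tags fell into 108301 groups of the same first 18 bases, of which 95257 (88.0%) held 1 tag. The 10 leading groups held 33.8% of the long reads, the leading 100 held 70.0% and the leading 1000 held 89.4%. Start 1 alone had 281399 long reads (12.5%) in 407 tags. Start 2 had 97463 reads and start 4 had 53844. Starts 5, 6, 8 and 9 had between 35820 and 51873 reads each.

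Several leading groups were the same RNA stretch entered at different bases. Start 2 began 2 bases upstream of start 1, and its most frequent length over all tags, 26 nt, was 2 nt longer than that of start 1, 24 nt, so both ended at the same base. Likewise the lead tags of start 1 (27 nt) and start 2 (29 nt) shared their last base. Among the 40 leading groups, start 1 and 5 others overlapped in this way, and these 6 groups held 19.1% of the long reads, of which start 1 alone held 12.5%. Starts 5 and 6 belonged to a set of 3 groups with 5.56%. The 40 groups reduced to 26 sets, and the 10 leading groups to 8, so groups were not independent of each other.

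The lead tags of starts 1, 2, 4, 8 and 9 were among the 10 most abundant tags. The tag ranked 3, with 52725 reads, was the lead tag of start 1 with 1 more base, and the tag ranked 8 was its 30 nt form, with 32736 reads. The lead tag of start 5 ranked 9 with 29809 reads, and the lead tag of start 2 without its last base ranked 10 with 29289 reads. The lead tag of start 6 ranked 12 with 27915 reads.

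Nearly all long reads had shorter tags of the same start beside them. Of the long reads, 95.8% began with an 18 to 26 nt tag of the list, but only 42.2% of the distinct long tags did. When each long tag was written in reverse order, as a background, the share of reads was 0.0135%. With at least 10 reads asked of the shorter tag the share was 92.9%, and 78.3% of the reads had a shorter tag at all 9 lengths from 18 to 26 nt. The share fell with length, from 96.7% of reads at 27 nt to 93.2% at 30 nt, 59.1% at 32 nt and 36.8% at 34 to 44 nt.

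How much of a start was long differed widely. Start 1 was mostly short: its 18 to 26 nt tags had 1172751 reads, and 19.4% of all its reads were in long tags. Its lengths were uneven, with 781511 reads at 24 nt, 189464 at 27 nt, 4548 at 29 nt and 33305 at 30 nt. Its lengths thus formed separate peaks. Start 9 lay at the other extreme, with 34335 of its reads (93.8%) at 28 nt and 97.9% in long tags. Starts 4, 5, 6, 8 and 9 had their most frequent length at 28 or 29 nt. Over the 40 leading groups the long share ran from 8.03% to 97.9% with a median of 47.4%, and 19 of the 40 had more long than short reads.

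**Figure D3:**
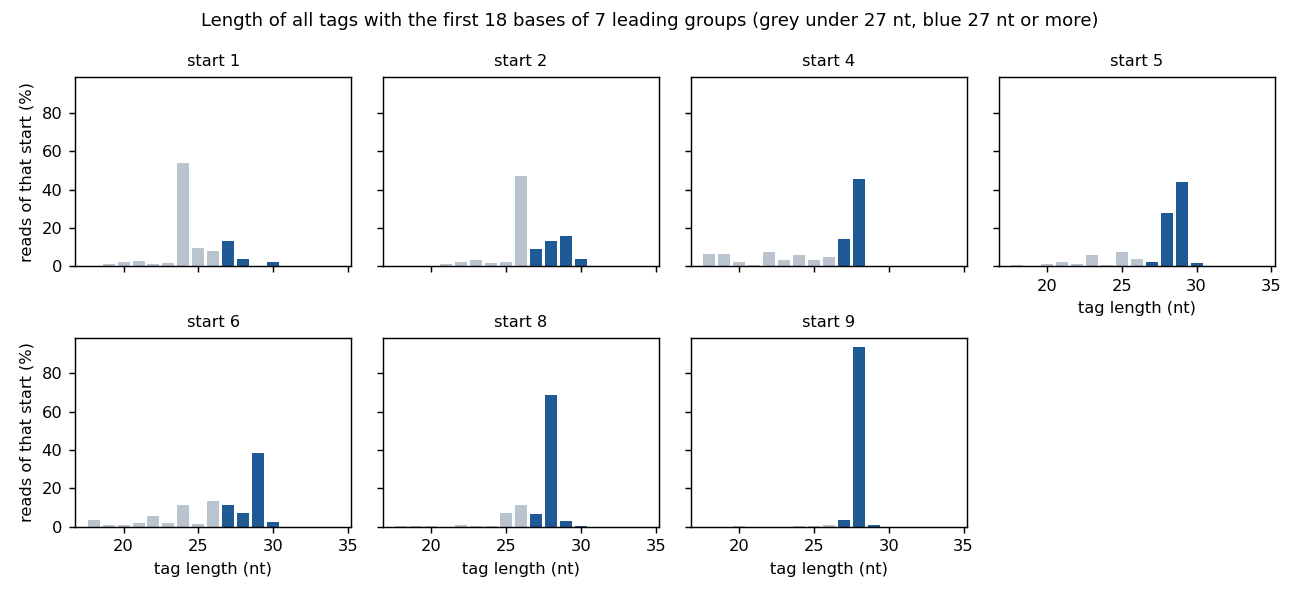
Share of reads at each length from 18 to 34 nt among all tags of the list that begin with the first 18 bases of each of 7 leading groups, with tags under 27 nt in grey and longer tags in blue. Starts 1 and 2 peak at 24 and 26 nt, while 93.8% of the reads of start 9 are 28 nt.

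Exact matches to GENCODE M21 transcripts, in sense, were found for 18.4% (18.3 to 18.4) of long reads and 23.2% of long tags. Of the 18 to 26 nt reads, 30% matched. Tags written in reverse order matched for 0.0129% of the reads. The remaining 81.6% of long reads, with 111014 tags, matched no transcript used here, and these included the lead tags of starts 1, 2, 4, 5, 6 and 8. Nuclear tRNAs and the full ribosomal repeat are not in the transcript set, so a tag without a match is not shown to lack a known source. Each tag was counted in the first class it matched.

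The largest class by reads was Gm42418 or Gm26917, neighbouring transcripts on chromosome 17 where the annotation also places ribosomal RNA, with 10.6% of long reads and 11.8% of the shorter reads. Gm42418 (GRCm38 chr17:39846958-39848788, plus strand) had 239069 of these reads in 1749 tags, and Gm26917 (chr17:39843013-39846341, plus strand) had 914. RefSeq places Rn18s-rs5, a copy related to the small-subunit ribosomal RNA, at chr17:39846354-39848202. It thus covers Gm42418 from its first base to chr17:39848202. The Gm42418 reads began at 718 of its 1831 bases, unevenly. Tags that began at bases 248 to 267 gave 18.8% and those that began at bases 68 to 88 gave 10.02%, and neither was the stretch with the most reads. The most abundant Gm42418 tag, at bases 258 to 285, had 23542 reads.
Gm42418: ctaggaataatggaataggaccgcggtt

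GENCODE annotates a ribosomal RNA gene, CT010467.1 (chr17:39846353-39848827, minus strand), opposite to Gm42418. Tags with 284119 long reads (12.6%) matched the strand opposite to this gene, which is the strand of Gm42418. Of these, 45098 reads (2.00%) matched no transcript in sense. Counting them raised the matched share to 20.4%. Sense matches to the ribosomal RNA genes themselves held 0.113% of long reads. Of those 2539 reads, 2536 matched 5S rRNA genes named n-R5s or Rn5s, 69 genes in all. Copies under other names are not in the 69. The lead tag of that class, 675 reads at bases 71 to 97 of 119, matched 50 genes equally, among them Gm22109, Gm22291 and Gm23284 on chromosome 8, to each of which the equal split gave 52.2 reads.

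The snoRNAs had a larger share of long reads, 4.46%, than of 18 to 26 nt reads, 0.799%. Most of it came from Gm23212, a snoRNA of 60 nt at chr1:161036682-161036741 on the plus strand, inside an annotated exon of Gas5, a noncoding host gene of snoRNAs. It had 63521 reads, 63.1% of its class. Its lead tag was that of start 9, bases 1 to 28, with 34249 reads, and the same stretch from base 2 led the group ranked 13 with 27689 reads. Both tags thus ended at the same base. Some 200 snoRNA genes had long reads, 78 of them with at least 10.

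Genes of U3, the snoRNA that takes part in the cutting of the rRNA precursor, gave 29827 reads, 29.6% of the class, and 98.7% of them ended within 5 bases of the 3′ end of the RNA. Rnu3a (chr10:40258467-40258679 for the copy listed first, plus strand) had 19673 reads, and its lead tag covered bases 187 to 213 of 213, the very end, with 18249 reads. The corresponding tag of the U3 b copies, 9423 reads, matched 6 genes equally, and Gm23927 (chr19:4078297-4078512) got 1723 reads in the split. In the whole snoRNA class, 65.7% of reads lay within 5 bases of the 5′ end and 31.4% within 5 bases of the 3′ end. Gm23212 and U3 held most reads of the class, so these shares describe mainly them. Named Snord genes had 3767 reads over 59 genes, Snora genes had 161 reads and Scarna genes had 24. Of the Snord reads, 40.4% lay within 5 bases of the 5′ end and 15.5% within 5 of the 3′ end. For Snora these shares were 18.6% and 54.0%. The lead tags of Rnu3a and Rny1, a Y RNA, are shown because they lay exactly at an end of the RNA.
Rnu3a: agagggagaggacacagtctgagtggt
Rny1: ggctggtccgaaggtagtgagttatctcaa

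Y RNAs made up 96.2% of the other small RNA class, which held 0.786% of long reads against 0.158% of the shorter reads. Rny1 (chr6:47788069-47788180, minus strand) had 16682 reads and Rny3 (chr6:47781624-47781725, plus strand) had 382. The lead tag of Rny1 covered bases 1 to 30 of 112 and had 8541 reads. This tag weighed on the matched share at 30 nt, where the class held 5.53% of reads, against 0.344% at 27 nt. At 31 nt, in other tags, the class held 9.28%, from 2430 reads of 17 tags. Of the reads of this class, 76.7% lay within 5 bases of the 5′ end. Rn7sk, the RNA that holds the elongation factor P-TEFb inactive, had 106 reads. The snRNAs (0.114%) were led by Gm25360 (chr1:72226240-72226430, plus strand) with 774 reads, most of them 1 tag at bases 95 to 121 of 191. Gm23444 and Gm23472 had 117 reads each, and 87.5% of the snRNA reads lay at neither end.

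**Figure D4:**
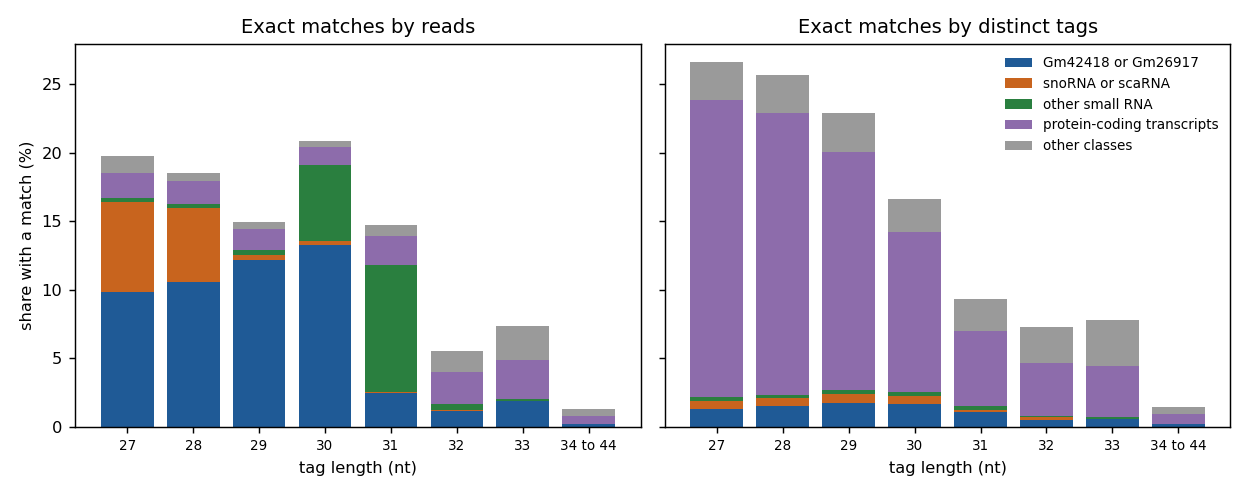
Share of long reads (left) and of distinct long tags (right) at each length with an exact sense match, stacked by RNA class. The snoRNA share falls from 6.57% of reads at 27 nt to 0.347% at 29 nt, other small RNA reaches 9.28% at 31 nt, and by distinct tags protein-coding transcripts lead with 21.7% at 27 nt.

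miRNA hairpins held 0.182% of long reads but 13.4% of 18 to 26 nt reads. Mir182 (chr6:30165918-30165992, minus strand) had 2671 of the 4099 reads. Its lead tag had 2482 reads and covered bases 7 to 33 of the hairpin, while the mature miR-182-5p in RefSeq covers bases 7 to 31. The 25 nt mature sequence itself had 7778 reads. The mature sequence is printed from RefSeq with its seed, bases 2 to 8, in capitals, above the long tag.
miR-182-5p: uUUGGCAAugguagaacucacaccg
long tag: tttggcaatggtagaactcacaccggt
Of all hairpin reads, 68.8% began within 2 bases of a mature start and had a longer 3′ end, but this was nearly all Mir182. Without Mir182 the share was 10.7% (153 of 1428 reads), and 84.9% came from hairpins without a mature sequence in the RefSeq table used. The second hairpin, mmu-mir-3535 (167 reads), shares its strand with an exon of Ncl, the nucleolin gene, and with the snoRNA Gm24148. The third, Gm47295 (115 reads), overlaps Rn7s1, a signal recognition particle RNA. The Mir290 to Mir295 and Mir302 hairpins, which mark embryonic stem cells, had 37 long reads from 4 hairpins of 13. In the 18 to 26 nt tags they had 629536 reads, 28.4% of the hairpin reads there, from 12 of the 13.

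Mitochondrial RNAs were scarce. The mitochondrial rRNAs mt-Rnr2 and mt-Rnr1 had 647 and 204 reads. Among 17 mitochondrial tRNAs with reads, mt-Ts1 (serine) had 68, mt-Tv (valine) had 57 and mt-Tq (glutamine) had 26, and the class held 0.0114% of the long reads. The lead tags of mt-Ts1 and mt-Tq began at the first base of the tRNA.

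Protein-coding transcripts held 1.67% of long reads but 18.2% of long tags, spread over 8602 genes. Among tags with at least 10 reads their share was 0.369%. Lars2, the mitochondrial leucyl-tRNA synthetase, led with 6414 reads (17.02% of the class) in 400 tags, and Mettl26 had 729 and Tmem38b, an endoplasmic reticulum cation channel gene, had 279. The lead tag of Lars2, 858 reads, lay at bases 3308 to 3334 of a transcript of 3894 bases. Whether the Lars2 reads came from its mRNA was not tested. The lead tag of Mettl26, 613 reads, was also that of the tRNA gene n-TGccc7, which lies inside it, and Tmem38b contains the 5S rRNA gene n-R5s185 on the same strand. Of the other transcripts, Gm15564 had 3365 reads, AA474408 had 621 and Gm43846 had 497.

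Nuclear tRNA sequence was at hand for 13 of the 430 tRNA genes in RefSeq, those that lie inside an exon or a promoter window, and 12 of them had long reads. Together they had 7707 reads in 100 tags, 0.342% of the long reads. The tRNA genes without sequence could not be searched for the same tags, so a read is not shown to come from the gene named. Even among the genes at hand, n-TSaga9, n-TStga1 and n-TStga2 had the same lead tag, with 7 reads counted for each. n-TVcac9, a valine tRNA (chr13:23446142-23446214), had 4015 reads, of which 98.2% began at the first base of the gene. n-TAagc16, an alanine tRNA (chr13:21222586-21222657), had 2856 reads with 99.6% from the first base, and n-TGccc7, a glycine tRNA (chr17:25875088-25875158), had 705 with 98.9%. In these 3 genes the long tags were thus nearly all from the 5′ end. Most reads of these genes were shorter, though: their 18 to 26 nt tags had 34561 reads for n-TVcac9, 25878 for n-TAagc16 and 2428 for n-TGccc7. The lead tags among those of 27 nt or more are printed to show the 5′ sequence they cover.
n-TVcac9: gtttccgtagtgtagtggttatcacgttc
n-TAagc16: gggggtgtagctcagtggtagagcgcgt
n-TGccc7: gcgccgctggtgtagtggtatcatgcaa
The tag ranked 22, a 27 nt tag with 16449 reads and no match, differed from the first 27 bases of n-TAagc16 by C26T, written from the gene to the tag and counted from the 5′ end. The other 9 genes had between 4 and 41 long reads. The only one whose lead tag reached the end of the gene was n-TSgct5, a serine tRNA, with 18 reads at bases 56 to 82.

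Some abundant tags were accompanied by many reads with 1 base changed. For the 40 most abundant tags, the reads that differed from the tag by 1 substitution made up 0.729% to 29.2% of the tag and its substituted forms, with a median of 1.12%. The share was above 5% for 7 of the 40. In the lead tag of start 8, 29.2% of reads were substituted, led by G6T with 5668 reads and G9C with 4061. At position 9 of this tag the substituted share was 16.5%. The lead tag of the group ranked 28, with 11638 reads, showed G6T with 660 reads and G6A with 97. In both tags the leading changes fell on G at position 6 or 9, and more than one base replaced it.

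In the tag of the group ranked 28 the form with position 6 removed had 1953 reads, 14.4% of the sum of both forms. The next base is also G and its removal gives the same sequence, so the missing base cannot be placed at position 6. The 27 nt tag of start 2 stood apart from these, since the leading difference fell on its last base. The lead tags of starts 1 and 2 also had it there, with substituted shares of 1.52% and 2.11% against 8.50% in the 27 nt tag. In that 27 nt tag C27A had 1564 reads, and this form ends in CCA. The same form is also the 26 nt tag of start 2, with 110551 reads, followed by A. Whether a changed read comes from another gene copy, from the RNA or from the reading of it was not tested. Substituted reads of the 3 tRNA gene tags made up 21.8% for n-TVcac9, led by G26A, 52.9% for n-TAagc16, led by G25T, and 3.77% for n-TGccc7, led by C7T with 10 reads.

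CCA, the bases of the tRNA tail, was not a frequent ending among the long tags. Such an ending is called the tail here, but a tag can end in these bases for other reasons. A tag with it is therefore not shown to be the end of a tRNA. CCA ended 15184 long reads, 0.673% (0.662 to 0.684), and 2431 tags, 1.68%. Among all 64 endings of 3 bases it ranked 37 by reads and 19 by tags. In the 18 to 26 nt tags it ended 1.95% of reads, rank 18, but 1.67% of distinct tags, close to the share in the long tags. By reads the shorter tags had a maximum of 4.84% at 22 nt, against 0.879% at 27 nt and 0.474% at 28 nt. The leading long endings were CCG with 13.8% of reads, which is the ending of the lead tags of starts 1 and 2, and CGG with 11.5%. The 5 most abundant tags with the tail are printed with the tail in capitals.
tail tag 1: cagccgacttagaactggtgcggaCCA
tail tag 2: agaggtgtagaataagtgggaggcCCA
tail tag 3: aggtgtagaataagtgggaggcccCCA
tail tag 4: gcagccgacttagaactggtgcggaCCA
tail tag 5: gtgaactatgcctgggcagggcgaagCCA

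Tail tag 1 had 2076 reads, 13.7% of all reads with the tail. Tail tags 1 and 4 (740 reads) shared their last 18 bases, and tags of the list that held these 18 bases and went on past them had 12015 reads, so in those tags CCA was not at the end. Tail tag 2 differed by C27A from the 27 nt tag of start 2, and tail tag 3, with 1357 reads, differed by G27A from the lead tag of start 1. Each was also a 26 nt tag of its start followed by A, and those shorter tags had 110551 and 109292 reads. Whether this A was a changed or an added base was not tested. Tail tag 5 had 594 reads, and tags that went on past its tail had 439. None of these 5 tags matched a transcript, with or without the tail. Of all reads with the tail, 11.3% matched a transcript whole, 0.718% only once the tail was removed, and 88.0% neither way.

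The few tags of 34 to 44 nt differed from the rest at their ends. The bases CTGAAC ended 210 of these 558 tags (37.6%, 33.6 to 41.8), against 116 of the 143954 tags of 27 to 33 nt (0.0806%). The share was 11.6% at 34 nt, 42.9% at 36 nt, 78.8% at 41 nt and 90.9% at 43 nt, but 26.8% at 42 nt and 23.8% at 44 nt. The adapter sequence is not known from the sources used here, so whether these bases are adapter, and whether the lengths above 33 nt are those of the RNA, was not tested. At 42 nt, 23.2% of tags ended in TTTT, against 2.19% at 27 to 33 nt. Of the tags at 42 nt 48.8% and at 44 nt 45.2% began like 1 of the 1000 leading groups, against 9.79% at 27 to 33 nt and 13.97% at 34 to 41 nt. The most abundant tags at the 38 and 42 nt peaks had 2 reads each, and at 44 nt each of the 42 tags had 1 read. Both tags are printed because they show how thin these peaks were. The 42 nt tag began like start 1, and the 38 nt tag held the end of tail tag 1 with its CCA. It ended in bases that also begin the lead long tag of Mir290a, which covered bases 14 to 40 of that hairpin. How both stretches came to stand in 1 tag was not tested.
38 nt: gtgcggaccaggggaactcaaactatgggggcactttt
42 nt: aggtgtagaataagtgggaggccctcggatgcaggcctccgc

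**Figure D5:**
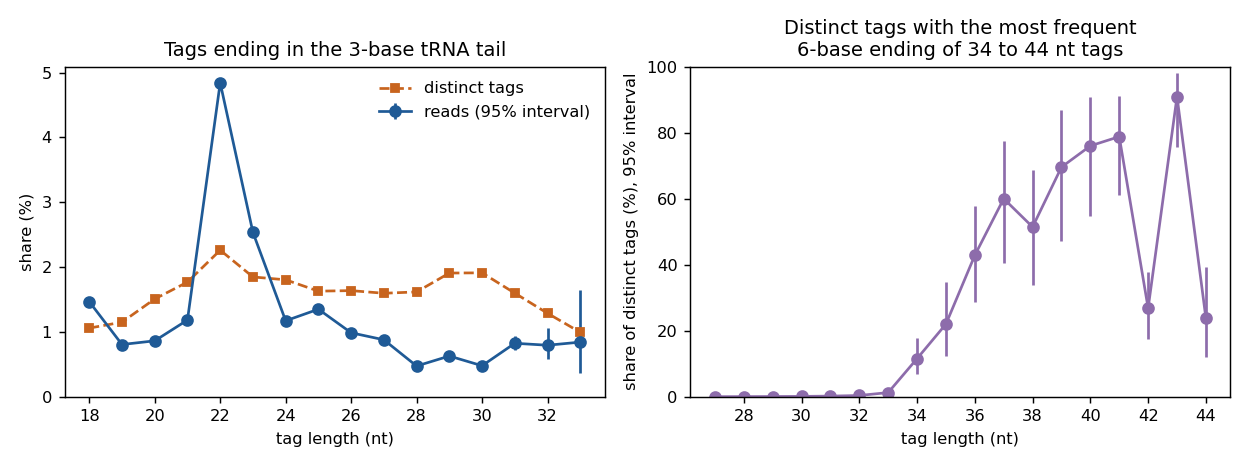
Left, share of reads (circles, 95% interval) and of distinct tags (squares) ending in CCA at each length from 18 to 33 nt. CCA, the bases of the tRNA tail, is called the tail here. Right, share of distinct tags with the 6-base ending most frequent at 34 to 44 nt, with 95% intervals. The tail peaks at 4.84% of reads at 22 nt, and the 6-base ending rises from 0.0357% of tags at 27 nt to 90.9% at 43 nt.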

How the data were processed

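The authors deposited 1 list per library, in which every distinct tag has its length and its raw count of reads, not normalized. The listed lengths equalled those of the sequences. The submitters' processing notes name the build mm9, and the handling of adapters, lengths and alignment was not given in the sources used here. Tags of 27 to 44 nt of the DMSO list were matched to GENCODE M21 transcripts, whole, exactly and in sense. A tag went to the first class it matched: ribosomal RNA genes, then Gm42418 with Gm26917, hairpins of miRNAs, snoRNA with scaRNA, snRNA, tRNA and rRNA of mitochondria, other small RNA, protein-coding and other transcripts. Reads were split equally between the genes of a class, while a shared nuclear tRNA tag counted in full for each tRNA gene. All coordinates come from these matches or from RefSeq and belong to GRCm38, not to mm9. Named items are the 10 leading tags and group leads, the lead tag of each length peak, the 3 leading genes of each class, and the 5 leading tail and sign tags. The Y RNA, U3, Snord, tRNA, substitution, deletion, opposite-strand, embryonic hairpin, without-Mir182, reversed SC1 and 6-base ending results were added after seeing the data. The members and lists were chosen with earlier results of these data known. The matching was tested on simulated data. Python 3.11.15, numpy 2.4.6 and scipy 1.17.1 were used. The depth of the whole library is unknown, since the list holds one range of lengths. Some of the leading tags and the results that rest on them are not reported here.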

Additional observations from a re-analysis of the deposited data

Results flagged for a closer look

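The SC1 list held no long tag, but its 17 nt tags matched the starts of the long tags of the DMSO list. Of the 537069 reads of 17 nt in the SC1 list, 427761 (79.6%) had a sequence that began a long DMSO tag, and this held for 6050 of the 31426 tags (19.3%). With the SC1 tags written in reverse order, 10 reads (0.00186%) did so. In turn, 82.2% of long DMSO reads began with an SC1 tag of 17 nt, for which 1 SC1 read was enough. The SC1 tag that begins start 4 had 10844 reads and that of start 1 had 800. For starts 2, 5, 6, 8 and 9 the SC1 reads were 25, 463, 6, 24 and 1. The 82.2% and the 79.6% thus do not weigh the same tags alike. The lists may hold different length classes of their libraries, so these values compare sequences and not amounts.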

How the results depend on the processing

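No paired analysis was possible because the series has 1 library for each treatment. Of 102 values under other settings, 94 moved by more than counting error, and 27 nt was the most frequent length in each of those tried for it. The 102 included the matches of reversed and antisense tags, in all and by class, all of which moved. These ask for another match and are not other settings of the same result. The values follow as the share at 27 nt, T first, A at position 10, the 10 leading groups, the matched share and the tail. With at least 2 reads a tag they were 40.8%, 20.6%, 32.3%, 35.6%, 18.1% and 0.624%. With at least 10 reads they were 40.9%, 20.5%, 32.6%, 36.9%, 18.1% and 0.565%. By distinct tags, the share at 27 nt was 34.9%, T first 23.4%, A at position 10 27.7%, nesting 42.2%, the match 23.2% and the tail 1.68%. Without the most abundant tag, 27 nt held 35.1%, T first 22.6%, A at position 10 25.99% and the match 20.05%; without start 1 they were 36.6%, 23.7%, 22.4% and 21.02%. By reads, at 32 to 44 nt T first was 11.5% and A at position 10 43.6%, and in tags with neither match nor tail they were 23.7% and 31.2%. With 15 or 22 shared bases the leading groups held 33.9% and 33.8%. Nesting on tags of at least 10 reads was 92.9%. The match was 19.1% after removing up to 3 terminal A or T, 19.7% for the first 24 bases only, 0.0129% reversed and 12.96% in antisense. The tail was 0.582% without its leading tag and 1.08% when 1 further base was allowed. The first 24 bases and the matches without the leading tag or start were added after seeing the data. Fewer tags entered with a minimum of reads and without the leading tag or start, but the cause of each move was not tested. One library gives no spread between samples.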
